A study of Drosophila melanogaster with 9 samples.

Results

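The sperm structural transcripts described here are 9 genes of Drosophila melanogaster, taken by name from the 17759 genes of the deposited count table: Mst84Da, Mst84Db, Mst84Dc, Mst84Dd, Mst87F, Mst98Ca, Mst98Cb, dj and betaTub85D. They were measured by strand-specific sequencing of poly(A)-selected RNA from whole larvae in the wandering phase of the third instar, shortly before pupariation. All larvae were raised on a sugar-yeast diet, after first-instar larvae had been counted and assigned at random to a density. The low density was 5 eggs per ml, the medium density 60 eggs per ml and the high density 300 eggs per ml, and each density had 3 libraries, each from a pool of 10 larvae. No strain, transgene or drug is named in the labels, and neither the sex of the larvae nor the age at collection is given. Replicates are separate pools, and nothing states whether they came from separate cultures, so p-values measure the spread between these pools.

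In the fly testis, spermatogonia divide and become primary spermatocytes, which grow and transcribe nearly all of the RNA that later stages need. Transcription then largely stops, and many messages for sperm parts are stored untranslated until the spermatids elongate. Testes of male third-instar larvae already hold spermatocytes but no mature sperm, so RNA for sperm proteins is present well before the proteins are. A set of testis-specific transcription regulators, named for the meiotic arrest of their mutants, switches on much of this program.

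The Mst84D genes, Mst87F and the Mst98C genes belong to the Mst(3)CGP family, whose proteins are rich in cysteine, glycine and proline repeats and lie in the sperm tail. The gene dj (don juan) codes for a basic protein of late spermatids that is found along the sperm tail. The gene betaTub85D codes for the testis-specific β-tubulin, which builds the meiotic spindle and the axoneme, the microtubule core of the tail. In Release 6 coordinates all 9 genes lie on chromosome arm 3R, and the Ensembl annotation places each at the position given in the deposited table. The 4 Mst84D genes fill 2956 bases, with Mst84Dd at 7363307-7363773, Mst84Dc at 7364254-7364673 and Mst84Db at 7365160-7365627 on the minus strand, and Mst84Da at 7365850-7366262 on the plus strand. They code for proteins of 55 (Mst84Dc) to 74 residues (Mst84Db), and Mst87F, at 13827151-13828008 on the minus strand, codes for 56. Mst98Ca, at 28291338-28292656 on the plus strand, codes for 334 residues, and Mst98Cb, at 28292798-28293863 on the same strand, begins after a gap of 141 bases and codes for 265. The gene dj is at 7059315-7060524 on the plus strand and its annotated proteins have between 187 and 248 residues, while betaTub85D, at 9408383-9410282 on the minus strand, codes for 446.

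Library totals were between 16822606 counts (high replicate 2) and 25141308 counts (high replicate 3), and the 9 transcripts took from 0.0119% of a library (medium replicate 3) to 0.0931% (high replicate 3). All 9 passed the filter on low counts, which kept 12883 genes. The lowest count was 90, for Mst84Dd in medium replicate 3, and the highest 7455, for betaTub85D in high replicate 3, so no value was near the floor of 3 counts. Read pairs that map to several places were counted as fractions. The counts were not whole for Mst98Ca in 8 libraries and for Mst98Cb in 7, so part of the reads of this neighbouring pair was shared with other places and their split is uncertain. They were whole in all libraries for 5 of the transcripts, among them dj and betaTub85D. MstProx overlaps Mst84Da, and lncRNA:CR43300 overlaps Mst87F, each on the opposite strand, and the deposited counts were taken by strand.

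The 9 transcripts were lowest at medium density and highest, on average, at high density. Their summed level was 388 to 517 CPM (counts scaled to library size with TMM factors) at low density, 131 to 301 at medium density and 381 to 826 at high density. The means were 444 ± 66.1 CPM at low, 212 ± 85.4 at medium and 625 ± 226 at high density (SD, n = 3 each). The highest pool of a density was 1.33 times the lowest at low, 2.30 times at medium and 2.17 times at high density. In bulk RNA of whole larvae, fewer cells of a type and less RNA per cell cannot be told apart. The libraries kept much the same order from transcript to transcript. Low replicate 2 was the highest low-density library for 9 of 9 transcripts, medium replicate 2 the highest and medium replicate 3 the lowest medium library for 9 of 9, and high replicate 3 the highest and high replicate 1 the lowest high-density library for 9 of 9.

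**Figure D1:**
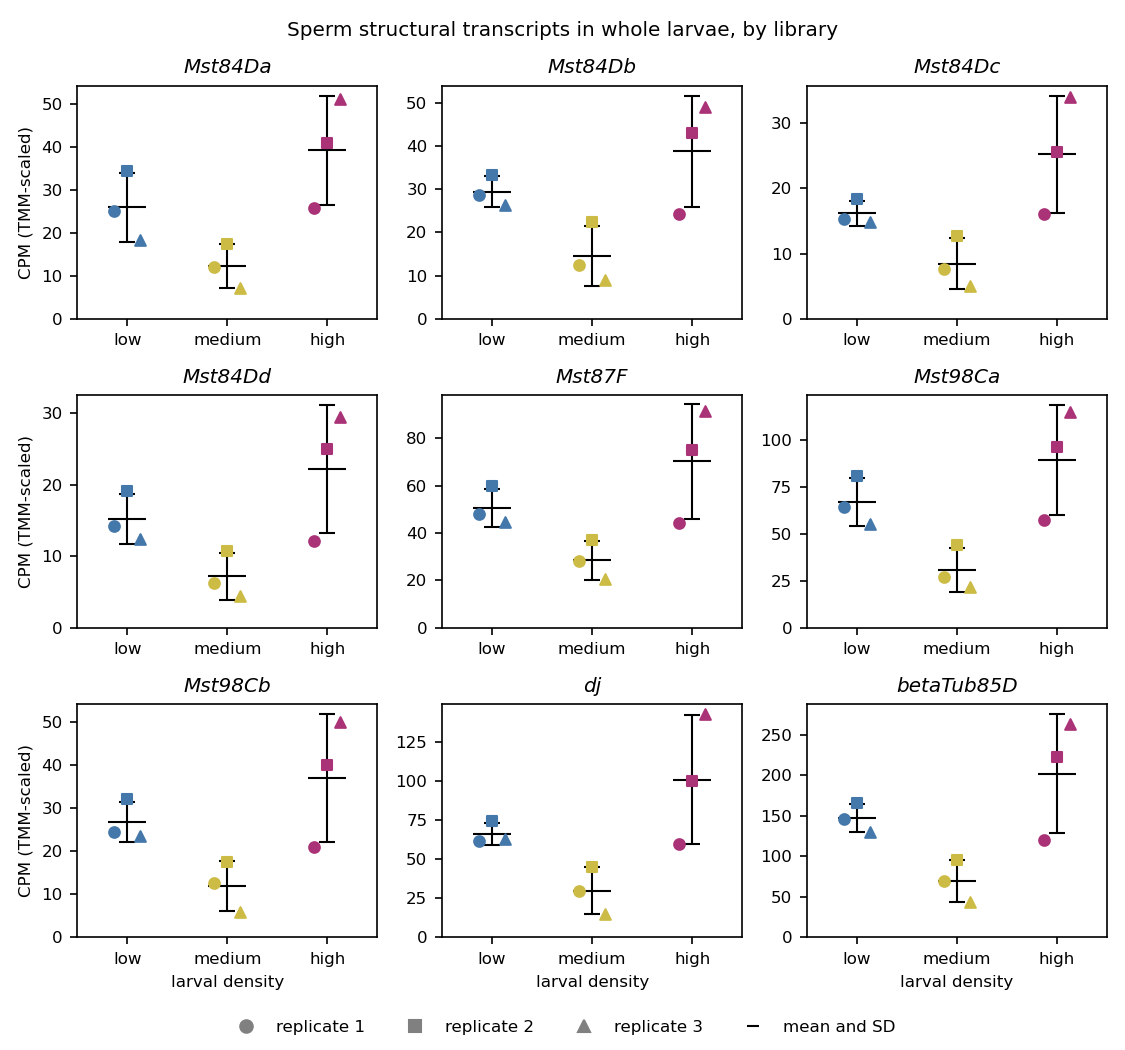
Level of each of the 9 transcripts in CPM (TMM-scaled, linear axes from 0) by larval density; symbols mark the replicate pools, long bars the mean and short bars the SD (n = 3). Every medium-density pool lies below every low-density and every high-density pool, and high replicate 1 lies within or below the low-density range.

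Among the Mst84D genes, Mst84Db was the most abundant at low density. It had 28.7, 33.4 and 26.4 CPM in the low-density pools, 12.4, 22.4 and 8.89 CPM in the medium-density pools and 24.4, 43.1 and 49.1 CPM in the high-density pools. The medium pools did not overlap with either of the other densities, while the low pools fell inside the span of the high pools. Mst84Da had 25.1, 34.5 and 18.4 CPM at low, 12.02, 17.4 and 7.24 CPM at medium and 25.8, 40.9 and 51.2 CPM at high density. Its low pools were spread more widely than those of its neighbours, and low replicate 3 came close to medium replicate 2 without overlapping it. Mst84Dc had 15.3, 18.3 and 14.8 CPM at low, 7.59, 12.7 and 4.99 CPM at medium and 16.1, 25.6 and 34.0 CPM at high density. Mst84Dd, the scarcest of the 9 in CPM at each density, had 14.2, 19.1 and 12.4 CPM at low, 6.30, 10.8 and 4.49 CPM at medium and 12.2, 24.9 and 29.4 CPM at high density. For both, the medium pools were again apart from the rest and high replicate 1 sat among or just below the low-density pools.

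Mst87F, the shortest but for Mst84Dc in protein length, had 47.9, 59.6 and 44.5 CPM in the low-density pools, 28.1, 37.0 and 20.4 CPM in the medium pools and 44.1, 75.0 and 91.6 CPM in the high pools. It spanned the narrowest range of the 9 among the medium pools, with 1.81 times between the lowest and the highest. Mst98Ca, the most abundant family member in CPM at low, medium and high density, had 64.2, 81.1 and 55.5 CPM at low, 27.3, 44.0 and 21.6 CPM at medium and 57.5, 96.1 and 115.0 CPM at high density. Mst98Cb had 24.5, 32.1 and 23.6 CPM at low, 12.5, 17.4 and 5.89 CPM at medium and 20.9, 40.0 and 50.0 CPM at high density. In each of these genes the 3 medium pools were the 3 lowest of the 9 libraries.

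The spermatid gene dj had 61.6, 74.1 and 62.8 CPM at low, 29.7, 44.7 and 14.5 CPM at medium and 60.0, 100.2 and 142.7 CPM at high density. Its spread within the medium density, 3.09 times from lowest to highest pool, was the widest of the 9. The β-tubulin gene betaTub85D had 146, 165 and 129.9 CPM at low, 69.2, 94.9 and 42.8 CPM at medium and 120.2, 222 and 263 CPM at high density. It was the most abundant of the 9 in CPM and gave between 31.5% and 34.2% of their summed level in every library. Per length, in RPKM (CPM per kilobase of exon), its lead disappeared. At low density Mst87F stood at 81.3 ± 12.7 RPKM, betaTub85D at 79.9 ± 9.56, Mst84Da at 72.7 ± 22.6, Mst84Db at 71.0 ± 8.63, dj at 54.7 ± 5.70, Mst98Ca at 50.7 ± 9.84, Mst84Dc at 44.5 ± 5.15, Mst84Dd at 36.6 ± 8.35 and Mst98Cb at 25.1 ± 4.41 RPKM (SD, n = 3). Only the steps from Mst84Db to dj and from Mst84Dd to Mst98Cb exceeded the larger SD of the neighbours at low density, and none of the 8 steps did at medium or high density. Within libraries the bottom of the order was the same, with Mst98Cb ranked last and Mst84Dd next to last in 9 of 9 libraries. Mst87F was ranked first in 5 libraries, and Mst84Da and betaTub85D were ranked first in 2 each.

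High against medium density compares the crowded larvae with those at an intermediate density. All 9 transcripts rose at high density, by 2.46 times for Mst87F to 3.41 times for dj, and the median fold was 2.99. The edgeR quasi-likelihood test, with Benjamini-Hochberg adjustment over all genes tested, called 9 of 9 higher, against 21.3% of all genes tested that were called higher. The high and medium pools did not overlap for 9 of 9, against 24.9% of all genes tested that were higher without overlap. The tubulin betaTub85D averaged 202 ± 73.6 CPM at high and 68.9 ± 26.04 CPM at medium density (SD, n = 3 each), a log2 difference of 1.55 (SE 0.34; edgeR adjusted p = 0.011). For dj the averages were 101 ± 41.4 CPM at high and 29.6 ± 15.1 CPM at medium density, a log2 difference of 1.77 (SE 0.41; edgeR adjusted p = 0.0131). In the tail-protein family, log2 fold changes were 1.30 (SE 0.29) for Mst87F, 1.42 (SE 0.36) for Mst84Db, 1.53 (SE 0.32) for Mst98Ca, 1.58 (SE 0.36) for Mst84Dc, 1.62 (SE 0.40) for Mst84Dd, 1.63 (SE 0.42) for Mst98Cb and 1.68 (SE 0.38) for Mst84Da. The edgeR adjusted p of these 7 genes lay between 0.01 (Mst98Ca) and 0.0168 (Mst98Cb). The range of these fold changes was no wider than the largest of the standard errors. Those errors include variation between pools that the transcripts share, so they are no measure of differences between transcripts. The median log2 fold change was 1.58 over the 9 and 0.01 over all genes tested. Leaving out medium replicate 1 left 6 of 9 called, without Mst84Db, Mst84Dd and Mst98Cb, against 9.43% of all genes then called higher. Leaving out high replicate 2 left 7, without Mst84Db and Mst98Cb, against 12.5%. A fit with only these 2 densities also left 7, against 11.8%, again without Mst84Db (edgeR adjusted p = 0.052) and Mst98Cb (edgeR adjusted p = 0.0526).

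The level of roX1 and roX2 moved with these differences. They are long noncoding RNAs of the male dosage compensation complex, which coats the X chromosome in male somatic cells. Their summed level was 792, 531 and 345 CPM in the low-density pools, 205, 423 and 137 CPM in the medium-density pools and 361, 611 and 599 CPM in the high-density pools. Among the low-density pools it spanned a wider range than the sperm transcripts did. With all 9 libraries edgeR called neither in any pair of densities, and between high and medium density the log2 difference was 1.05 for roX1 (SE 0.45, edgeR adjusted p = 0.0933) and 0.93 for roX2 (edgeR adjusted p = 0.151). Without medium replicate 2 edgeR called both, lower at medium against low density (median -1.73) and higher at high against medium density (median 1.59), and DESeq2 with all libraries called 1 of 2 between high and medium density. With the mean log2 level of roX1 and roX2 as a covariate, 0 of 9 sperm transcripts were called between high and medium density, against 2.31% of all genes tested that were then called higher. Their log2 fold changes were then between 0.74 (Mst84Db) and 1.07 (dj), with edgeR adjusted p-values between 0.0648 and 0.148. Per unit of roX RNA, the summed level of the 9 was 0.54, 0.974 and 1.12 in the low pools, 0.999, 0.713 and 0.957 in the medium pools and 1.05, 1.09 and 1.38 in the high pools. The means were 0.88 ± 0.303 at low, 0.89 ± 0.155 at medium and 1.18 ± 0.177 at high density (SD, n = 3 each). In this ratio the high pools overlapped with the low pools but not with the medium pools. The part of male-specific RNA in the density differences was not tested.

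**Figure D2:**
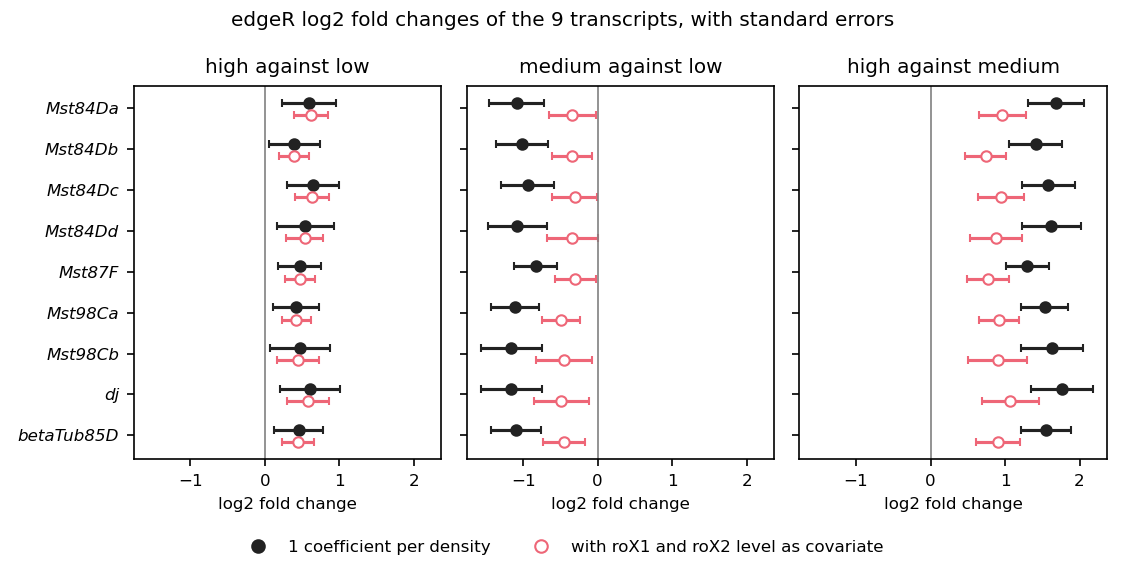
Log2 fold change of each of the 9 transcripts in the 3 pairs of densities, with the standard error as bars; filled points are from the fit with 1 coefficient per density, open points from the fit with the roX1 and roX2 level as a covariate. Between high and medium density the values lie between 1.30 and 1.77 without the covariate and between 0.74 and 1.07 with it.

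Medium against low density asks about moderate crowding. All 9 transcripts had lower values at medium density, and none passed the test. For dj the averages were 29.6 ± 15.1 CPM in medium pools and 66.2 ± 6.90 CPM in low pools, and for betaTub85D they were 68.9 ± 26.04 CPM in medium pools and 147 ± 17.6 CPM in low pools (SD, n = 3 each). Log2 fold changes were between -1.16 (Mst98Cb) and -0.83 (Mst87F), with a median of -1.09, against 0.02 over all genes tested. The edgeR test called 0 of 9, with adjusted p-values between 0.13 and 0.154, and it called 0% of all genes tested in either direction. An unadjusted p under 0.05 was reached by 9 of 9, against 17.5% of all genes that were lower at that level, and the pools did not overlap for 9 of 9, against 22.2% of all genes that were lower without overlap. DESeq2 called 2 of the 9, Mst98Ca (DESeq2 adjusted p = 0.026) and betaTub85D (DESeq2 adjusted p = 0.0324), against 8.78% of all genes tested that it called lower, and limma voom called 0. Without medium replicate 2, the medium pool with the highest sperm and roX levels, edgeR called 4, namely Mst84Db, Mst84Dc, Mst98Ca and betaTub85D, with adjusted p-values between 0.0482 and 0.0498, against 7.81% of all genes then called lower. With the roX covariate the median log2 fold change was -0.35 and edgeR adjusted p-values were between 0.915 and 0.923.

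High against low density compares the extremes of crowding, and there none of the 9 transcripts passed the test and the pools overlapped for all of them. Log2 fold changes were between 0.40 (Mst84Db, SE 0.35) and 0.64 (Mst84Dc, SE 0.35), with a median of 0.47, against 0.06 over all genes tested. The edgeR test called 0 of 9, against 4.18% of all genes tested that were called higher, with adjusted p-values between 0.257 and 0.46 and 0 of 9 at an unadjusted p under 0.05. DESeq2 and limma voom also called 0. The high pools did not move as a group. High replicates 2 and 3 lay above the low-density range for 9 of 9 transcripts each, while high replicate 1 lay below it for 6 of 9 and above it for none. The share over all genes was not counted here. The 9 moved together across libraries (Pearson's r of 0.975 or more), so these counts are not 9 separate observations. Without high replicate 1 the median log2 fold change was 0.75, still with 0 called, and without high replicate 3 it was 0.23. High replicate 1 also had the lowest roX level of the high-density pools.

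The joint test for any difference among the 3 densities called 9 of 9, with edgeR adjusted p-values between 0.0247 (Mst98Ca) and 0.0412 (Mst98Cb), against 33.6% of all genes tested. These calls depended on single pools, and the number called over all genes also varied with the pool left out. The count was 0 of 9 without low replicate 1, medium replicate 1, medium replicate 3 or high replicate 2, each left out alone. Shares over all genes are not given for those fits, so these losses are no result about the 9 transcripts alone. Omitting low replicate 2 left 2, against 17.2% of all genes, omitting low replicate 3 left 5, against 21.9%, and omitting high replicate 3 left 6, against 32.7%. The roX covariate left 0, against 1590 calls over all genes tested.

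The pools of a density differed more in the sperm transcripts than in the typical gene. The median SD of log2 CPM within a density was 0.219 over the 9 transcripts at low, 0.631 at medium and 0.545 at high density. Over all genes tested it was 0.131 at low, 0.152 at medium and 0.228 at high density. The 9 moved together across pools of the same density as well as between densities. Pearson's r between pairs of transcripts, over the 9 libraries on the log2 scale, was between 0.975 and 0.996 for the 36 pairs, and with the density means removed it was between 0.917 and 0.996. These points share library depth and scaling, so the values describe the libraries and carry no p.

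Against this shared pattern, the deviations of single transcripts were small. The mean profile of the 9 had an SD of 0.833 across the libraries on the log2 scale, and the deviation of a transcript from it had an SD between 0.065 (betaTub85D) and 0.178 (Mst87F). The largest deviations fell in medium replicate 3, the library with the lowest sperm RNA. There Mst87F stood 0.39 above the profile, dj 0.38 below it (a deviation of -0.38) and Mst98Cb at -0.32, while Mst98Ca, the neighbour of Mst98Cb, stood at 0.19. In low replicate 3 Mst84Da was at -0.29, and in high replicate 3 dj was at 0.22. Relative to betaTub85D, Mst87F stood at -1.54 ± 0.07 at low, -1.24 ± 0.16 at medium and -1.51 ± 0.06 at high density on the log2 scale (SD, n = 3 each).

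**Figure D3:**
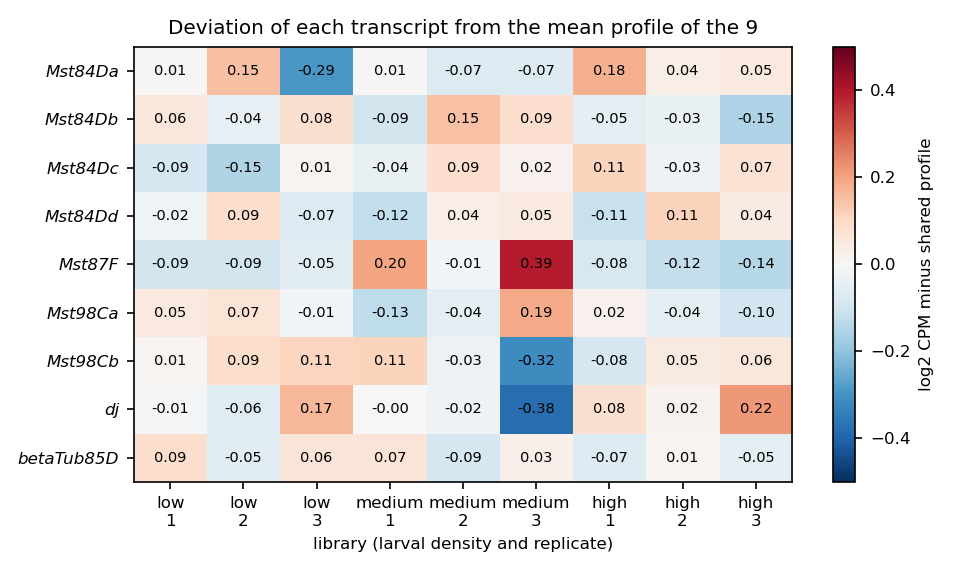
Deviation of each transcript from the mean log2 profile of the 9, by library, with each transcript's own mean removed; red is above and blue below the profile. Most cells lie within 0.2 of it, and the strongest colours are those of Mst87F at 0.39 and dj at -0.38 in medium replicate 3.

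Other genes of the male germ line also differed between these pools. The larvae were not dissected, so the source cells of the 9 transcripts rest on background knowledge, and all 13 spermatocyte regulators listed were found in the table and passed the filter. The lists named here were chosen with earlier results of these data known and are described by counts only. Of the 13 meiotic arrest regulators, 13 rose at high against medium density, against 21.3% of all genes tested that were called higher. Their median log2 fold change was 1.37. They include achi, a homeodomain factor and the most abundant of them, which averaged 40.6 ± 5.06 CPM at high and 25.3 ± 3.41 CPM at medium density (SD, n = 3 each). Its log2 fold change of 0.68 was well below the median, and of the list only mia was lower, at 0.64. Of 26 further spermatid and sperm genes, 26 rose, with a median of 1.51. Among these were the sperm nuclear protein genes ProtA, ProtB and Mst77F, and S-Lap1, a leucyl aminopeptidase of sperm and the most abundant of the list, at 386 ± 144 CPM at high and 135 ± 52.2 CPM at medium density.

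The cup and comet genes are unusual in being transcribed after meiosis, in elongating spermatids. Of 17 listed, 16 were found in the table and 14 passed the filter. All 14 tested rose, with a median log2 fold change of 1.54, and m-cup, the most abundant, had the lowest value of 0.46 (SE 0.16, edgeR adjusted p = 0.0448). All 12 Y-linked fertility genes had higher values, with a median of 1.9. The test called 11 of them, and Pp1-Y2 did not pass (edgeR adjusted p = 0.0742). FDY, the most abundant of them, had a log2 fold change of 0.88 (SE 0.19). The counts called were the same with the other scalings tried (RLE, upper quartile, library totals), except that Pp1-Y2 was also called with library totals. Leaving out medium replicate 1 lowered them to 3 of 13 regulators, 17 of 26 spermatid genes, 6 of 14 cup and comet genes and 7 of 12 Y-linked genes. Of all genes 9.43% were then called higher, against 21.3% with all libraries. Without high replicate 2 edgeR called 5 regulators, 21 spermatid genes, 9 cup and comet genes and 8 Y-linked genes, against 12.5% of all genes. Without medium replicate 3 it called 8 regulators, 24 spermatid genes, 9 cup and comet genes and 8 Y-linked genes. The share over all genes is not given for the fit without medium replicate 3. A fit with only the high and medium densities called 6 regulators, 22 spermatid genes, 7 cup and comet genes and 9 Y-linked genes. Of all genes 11.8% were then called higher. The roX covariate lowered the count of each list to 1, against 2.31% of all genes tested.

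Between medium and low density edgeR called 0 genes of these lists with all 9 libraries, although 13 of 13 regulators, 24 of 26 spermatid genes, 13 of 14 cup and comet genes and 6 of 12 Y-linked genes were lower at an unadjusted p under 0.05. Of all genes tested 17.5% were lower at that level. Without medium replicate 2 edgeR called 11 regulators, 15 spermatid genes, 5 cup and comet genes and 2 Y-linked genes lower, against 7.81% of all genes. DESeq2 with all libraries called 11 regulators, 16 spermatid genes, 4 cup and comet genes and 5 Y-linked genes lower. Its share over all genes was 8.78%, and limma voom called 0 in these lists. The medians with all libraries were -1.30 for the regulators, -1.08 for the spermatid genes, -1.11 for the cup and comet genes and -1.11 for the Y-linked genes. Between high and low density, 2 genes of these lists were called higher, against 4.18% of all genes tested. Both are Y-linked and named after their values were seen. The dynein heavy chain gene kl-3 averaged 3.16 ± 1.38 CPM at high and 0.838 ± 0.102 CPM at low density (log2 fold change 1.91, edgeR adjusted p = 0.0189). ORY averaged 1.02 ± 0.485 CPM at high and 0.279 ± 0.152 CPM at low density (log2 fold change 1.87, edgeR adjusted p = 0.0482). Its low-density level was near the floor of 3 counts, which is 0.127 to 0.133 CPM in those libraries before TMM scaling. Against 4.18% of all genes, 2 calls are no result about these lists. Both calls were lost when any of the 3 low-density libraries or high replicate 2 was left out, and ORY was not called with the roX covariate (edgeR adjusted p = 0.056). The summed level of the 9 sperm transcripts per unit of the regulators was 2.78, 2.86 and 2.93 in the low pools, 2.93, 3.03 and 2.13 in the medium pools and 3.27, 3.60 and 4.19 in the high pools. The high pools were above all others in this ratio. The regulator achi, which changed less than most, weighs on it unevenly. On average achi gave 25.3 of 77.0 summed regulator CPM at medium, 35.9 of 156 at low and 40.6 of 166 at high density. Per unit of the Y-linked genes it averaged 11.4 ± 0.55 at low, 10.7 ± 1.16 at medium and 10.4 ± 0.517 at high density (SD, n = 3 each). An exact permutation test of 3 against 3 pools cannot go below p = 0.10, so the ratios are given without one.

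**Figure D4:**
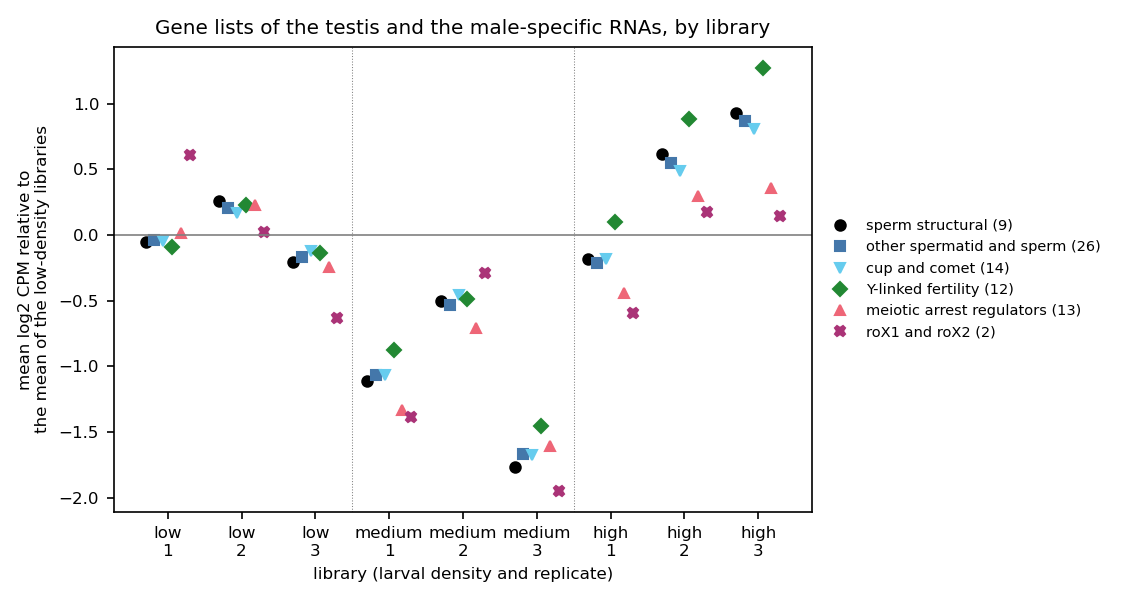
Mean log2 CPM of each gene list in each library, relative to its mean over the 3 low-density libraries; points within a library are set side by side, and the legend gives the genes tested per list. In medium replicate 3 all 6 lists lie at or below -1.45, and in low replicates 1 and 3 roX1 and roX2 lie at 0.61 and -0.63 while the sperm structural transcripts lie at -0.06 and -0.20.

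Lists outside the late male germ line were counted in the same way. Over all genes tested at high against medium density, edgeR called 2749 of 12883 higher and 2353 lower. A few calls in a short list are therefore no result about that list. The ubiquitous β-tubulin gene betaTub56D averaged 1020 ± 20.4 CPM in low pools, 1165 ± 123 CPM in medium pools and 1089 ± 112 CPM in high pools (SD, n = 3 each) and was not called in any pair. At high against medium density edgeR called 1 of the 6 other tubulin genes tested higher (alphaTub84D) and 1 lower (betaTub60D). Both were named after their values were seen. By direction alone 1 was higher and 5 were lower. The 10 early germ cell genes listed are active in germline stem cells and their early daughters. Of them edgeR called 2 higher (bgcn and tut) and 1 lower (piwi), again named after their values were seen. By direction alone 9 were higher and 1 was lower. The number of calls depended on the scaling and on single libraries. It was 5 higher and 0 lower with upper-quartile factors, 7 higher and 0 lower with library totals, and 6 higher and 1 lower without high replicate 1. It was 0 in both directions without medium replicate 1, medium replicate 3, high replicate 2 or high replicate 3, and the median log2 fold change was positive with TMM (0.51) and with each other scaling.

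Among somatic lists, the 3 new-glue genes, which are active in the salivary gland of third-instar larvae, rose in 3 of 3 at high density, against medium and against low density. Their summed level was 2.22 to 2.71 CPM in the low pools, 5.14 to 19.5 CPM in the medium pools and 111 to 205 CPM in the high pools. Of the 6 salivary gland glue genes 5 were called lower at high against medium density. That count was 3 with upper-quartile factors, with library totals and without medium replicate 1, medium replicate 3, high replicate 2 or high replicate 3, and 1 with the roX covariate. The other glue gene, Sgs1, named after its values were seen, averaged 2831 ± 1460 CPM at high and 1397 ± 409 CPM at medium density (SD, n = 3 each). Its log2 fold change was 1.02 (edgeR adjusted p = 0.0505), and 2.115 against low density (edgeR adjusted p = 0.00848). With RLE, upper-quartile factors, library totals, DESeq2 or without high replicate 3, 1 glue gene was called higher than at medium density. Of 6 fat body genes 2 were called lower, with 1 to 3 when single libraries were left out (1 without medium replicate 1 or high replicate 2). By direction alone all 6 were lower. Over all genes tested, 2353 of 12883 were called lower at high against medium density. Of 5 midgut and 5 body wall muscle genes edgeR called 0 with all libraries, and 1 of each was higher at an unadjusted p under 0.05. Without high replicate 3 edgeR called 5 of 5 muscle genes higher, and 2 midgut genes higher and 1 lower. With library totals 2 of each list were called higher, and DESeq2 called 2 muscle genes and 1 midgut gene higher. Unlike the sperm transcripts, the new-glue genes were higher in the medium than in the low pools, without overlap. The part of larval stage in the sperm transcript differences was not tested.

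The genes whose pattern was most like the mean profile of the 9, among 9576 others with a mean of at least 5 CPM, were CG32371, CG46059, CG7634, CG31029, CG15219, CG9920, CG31988, CG14540, w-cup and vrs. Their Pearson's r with the profile over the 9 libraries was between 0.9988 (vrs) and 0.9995 (CG32371). CG32371 averaged 40.4 CPM in low pools, 19.1 CPM in medium pools and 59.3 CPM in high pools. Such likeness was common, with 1290 genes above an r of 0.95. Of the 100 genes most like the profile, 8 were among the 26 further spermatid and sperm genes. None was among the listed regulators, Y-linked or cup and comet genes. Only genes with at least 5 CPM could be ranked, namely 25 spermatid, 11 regulator, 4 Y-linked and 12 cup and comet genes. The gene w-cup, at rank 9, carries a cup name but had not been put on the cup and comet list, so that list is incomplete. By the same measure roX1 had an r of 0.884 and roX2 one of 0.852, at ranks 1536 and 1621.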

How the data were processed

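The deposited table gives expected counts of read pairs per gene, without any normalization. Per the file headers the authors made them with featureCounts 1.6.2 on RefSeq exons of Release 6, on the reverse strand, with multi-mapping pairs counted as fractions; 5.06% of the values are not whole. Trim Galore 0.6.4, HISAT2 2.1.0 and SAMtools 1.9 are named, without roles, in the submitters' processing notes. The deposited exon lengths gave RPKM.

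After rounding, these counts went into the quasi-likelihood test of edgeR 4.0.16 (R 4.3.3), with filterByExpr, TMM factors, 1 coefficient per density over all 9 libraries and Benjamini-Hochberg adjustment over 12883 genes at a threshold of 0.05. Log2 CPM used a prior count of 2. DESeq2 1.42.0 and limma 3.58.1 (voom) were alternatives. The edgeR test was checked on simulated counts with known changes. Each gene was drawn independently there, so the check does not show how the test behaves for genes that move together. No replicate pair was alike within sampling noise: chi-square per degree of freedom was 16.2 to 185.3. At these depths 3 counts equal 0.119 to 0.178 CPM before TMM scaling.

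The members, the lists and the tests were chosen with earlier results of these data known. The genes named were the 9 members, the 10 genes most correlated with their mean profile among those of at least 5 CPM, and the most abundant gene of a list; others are said to be named after their values were seen. Sequences were not used here.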

Additional observations from a re-analysis of the deposited data

How the results depend on the processing

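The fold changes of the 9 transcripts kept their direction under all 19 alternatives in each pair of densities. They ranged from 0.74 to 2.19 at high against medium, -1.58 to -0.30 at medium against low and 0.18 to 0.88 at high against low density on the log2 scale. At high against medium density the number called was 9, and 0 with the roX covariate, 7 with only the 2 densities, and 6 to 9 without single libraries. At medium against low it was 0, and 2 with DESeq2 and 0 to 4 without single libraries. At high against low it was 0 under all 19. In the joint test it was 9, and 0 with the roX covariate, 8 with voom and 0 to 9 without single libraries.

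The replicate numbers did not pair the pools: same-numbered pools correlated between -0.339 and 0.279 in their deviations, and not every pool correlated best with its own number. With replicate number as a block 9, 0 and 0 transcripts were called at high against medium, medium against low and high against low density, and 7 in the joint test.

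Over all genes, 5102 were called at high against medium density, against 3095 with the 2 densities alone, 1131 with the roX covariate and 2675 to 5447 without single libraries. At high against low 1961 were called, against 978 with the 2 densities alone and 807 to 2755 without single libraries. At medium against low 0 were called, against 1575 with DESeq2, 7 with the 2 densities alone and up to 1094 without single libraries (medium replicate 2). In the joint test 4330 were called, against 1590 with the roX covariate and 990 to 4841 without single libraries. Library totals alone moved the all-gene median (log2) to 0.26 at high against medium density, where 4958 of 5904 calls were rises, against 2749 of 5102 with TMM and 3304 of 4971 with upper-quartile factors. At high against low it moved to 0.21, with 1656 of 2544 calls as rises, against 539 of 1961 with TMM and 798 of 1916 with upper-quartile factors. Relative to that shift the median of the 9 transcripts, 1.84 and 0.64 with library totals, stayed near the 1.58 and 0.47 with TMM. The cause of the lost calls was not tested. The counts of the 9 were 90 or more in every library.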
